A study of Mus musculus with 12 samples.

Results

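Interferon regulatory factors (IRFs) are transcription factors that share an N-terminal DNA-binding domain and recognise interferon-stimulated response elements. The 8 family members described here, Irf1, Irf2, Irf3, Irf4, Irf5, Irf7, Irf8 and Irf9, were followed in mouse splenic dendritic cells (DCs), the cells that take up antigen and prime T cells. They were chosen as the probe sets of an expression array whose annotation names 1 of these symbols and no other gene. The rule found 14 probe sets, all of which passed the filter on low values, and they stood for 8 of the 15019 genes tested. Irf1, Irf2, Irf7 and Irf9 have 1 probe set each, Irf4, Irf5 and Irf8 have 2 each, and Irf3 has 4.

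The study asked how gene expression in DCs depends on the NF-kB-inducing kinase (NIK, gene Map3k14), the upstream kinase of the non-canonical NF-kB pathway. Alymphoplasia (aly) mice, which carry a mutant NIK in every cell and lack lymph nodes, were set against heterozygous littermates, which still carry 1 mutant allele and are the group called WT. Mice of each genotype were left untreated, or received 25 micrograms of the Toll-like receptor 4 agonist lipopolysaccharide (LPS) with 100 micrograms of an activating antibody to CD40 by intraperitoneal injection, with DCs collected after 6 hours. The design thus has 4 groups, WT and aly DCs untreated or treated, with 3 arrays in each group. Every array carried RNA from the pooled DCs of 3 mice, enriched on CD11c beads, sorted by flow cytometry and amplified through consecutive rounds of in vitro transcription. P-values therefore measure the spread between pools. The mutation is in all tissues, so effects within DCs and effects of the cells around them cannot be told apart.

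Textbook knowledge divides the family by role. IRF3, IRF5 and IRF7 lie downstream of Toll-like and cytosolic nucleic acid receptors and switch on type I interferon and inflammatory cytokine genes. IRF9 joins STAT proteins downstream of the interferon receptors, IRF1 is itself induced by interferon gamma and NF-kB and activates antigen-presentation and guanylate-binding protein genes, and IRF2 competes with IRF1 on the same elements. IRF4 and IRF8 bind DNA with partners such as PU.1, SpiB and BATF proteins and shape DC subsets, IRF8 those with CD8 alpha and IRF4 those with CD11b.

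Promoter windows from RefSeq (build GRCm38.p6, 250 bases before to 50 bases after a start site) were found for all 8 members, 11 windows in all. They were searched on both strands for GAAANNGAA, the core of an interferon-stimulated response element, for TTCNNNGAA, the element bound by STAT dimers (GAS), and for the NF-kB consensus. The response element core was in 1 of the 11 windows, against 8.56% of all 32851 mouse promoter windows in the same table. The GAS element was in 3 of 11 (8.30% of all windows) and the NF-kB consensus in 2 of 11 (8.46%). Below are the windows of Irf1 and Irf7, whose transcripts rose in treated WT DCs, of Irf4, whose transcripts differed most clearly between the treated genotypes, and of Irf2, whose values overlapped in all 4 groups. Matches are in capitals and everything else is in lower case. No 2 kinds of match overlapped in these windows.
Irf1, chr11:53769764-53770063, plus strand: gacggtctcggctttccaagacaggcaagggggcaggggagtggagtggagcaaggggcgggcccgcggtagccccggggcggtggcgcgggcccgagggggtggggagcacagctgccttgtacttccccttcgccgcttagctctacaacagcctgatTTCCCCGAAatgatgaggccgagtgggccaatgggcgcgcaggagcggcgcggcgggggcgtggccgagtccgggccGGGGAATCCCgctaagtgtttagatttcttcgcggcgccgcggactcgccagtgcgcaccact
Irf2, chr8:46739495-46739794, plus strand: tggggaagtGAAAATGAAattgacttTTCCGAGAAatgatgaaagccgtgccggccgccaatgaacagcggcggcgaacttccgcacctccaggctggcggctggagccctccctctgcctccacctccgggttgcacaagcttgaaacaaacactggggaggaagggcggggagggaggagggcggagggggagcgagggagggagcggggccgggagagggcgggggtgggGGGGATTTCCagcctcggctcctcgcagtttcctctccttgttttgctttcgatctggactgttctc
Irf4, chr13:30748983-30749282, plus strand: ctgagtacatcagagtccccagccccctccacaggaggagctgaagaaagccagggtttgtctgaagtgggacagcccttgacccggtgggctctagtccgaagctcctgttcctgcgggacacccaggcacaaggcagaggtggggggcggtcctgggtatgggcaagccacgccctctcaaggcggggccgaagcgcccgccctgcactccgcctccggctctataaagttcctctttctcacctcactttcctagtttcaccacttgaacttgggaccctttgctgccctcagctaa
Irf7, chr7:141266375-141266674, minus strand: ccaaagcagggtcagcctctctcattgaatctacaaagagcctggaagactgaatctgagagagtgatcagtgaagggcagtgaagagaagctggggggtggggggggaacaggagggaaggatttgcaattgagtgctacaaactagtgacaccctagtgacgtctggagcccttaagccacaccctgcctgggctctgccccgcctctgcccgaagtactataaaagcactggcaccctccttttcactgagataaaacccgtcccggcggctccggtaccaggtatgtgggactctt
In the Irf1 window the GAS match, TTCCCCGAA, began 90 bases before the start site and the NF-kB match, GGGGAATCCC, 13 bases before it. The Irf2 window held all 3 kinds of match, at 241 (response element), 224 (GAS) and 17 (NF-kB) bases before the start. No match to these letters lay in the Irf4 and Irf7 windows printed. The window of a second Irf1 start site, not printed, held none either. The only other member with a match was Irf8, with 2 GAS matches, 171 and 153 bases before its first start site. A match is a description of the letters and does not show that a factor binds there.

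The deposited array values were linear intensities, and every array had a trimmed mean of 150. Treated aly replicate 1 stood apart from the other 11 arrays. Its rank correlation with each of them lay between 0.52 and 0.65, against 0.74 to 0.91 among those 11, and its hybridisation controls averaged 24396, against 1933 to 3739. The mean log2 ratio of 3' to 5' signal for Actb and Gapdh, a sign of RNA length after amplification, was 1.37 to 1.83 on WT arrays, 2.17 to 3.11 on the other 5 aly arrays and 5.66 on this array. This ratio thus moved with genotype, and its part in the genotype differences below was not tested. Map3k14 itself had a genotype difference of 0.08 ± 0.50 (log2, SE) without treatment and -1.11 ± 0.50 with it (limma, adjusted p = 0.975 and 0.201). The aly allele is a point mutation, so this transcript level is no check of the labels.

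In WT DCs the treatment raised Irf7, Irf1, Irf5 and Irf4. Irf7 rose 19.8-fold, Irf1 4.53-fold, Irf5 3.42-fold and Irf4 2.45-fold, and on each of these 4 genes every treated WT array lay above every untreated one, as on 14.3% of all genes. Calls here and below are at an adjusted p under 0.05 in limma, Benjamini-Hochberg adjusted over all 15019 genes. In this comparison 4 of the 8 members rose and none fell, where 4.95% of all genes rose and 4.75% fell. The median log2 difference was 0.87 over the members and -0.12 over all genes.

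Among the factors downstream of pattern receptors, Irf7 had the largest difference. Its intensities on the untreated WT arrays were 442.2, 411.8 and 269.3, and on the treated ones 7768.6, 6057.8 and 9216.9, so the groups were far apart. The log2 difference was 4.31 ± 0.40 (SE, n = 3 arrays a group, limma adjusted p = 6.27e-06), and it was called without any 1 of the 12 arrays. Irf5, which carries MyD88 signals to inflammatory cytokine genes, read 601.1, 973.6 and 638.5 untreated and 3154.1, 1768.5 and 2805.6 treated. The lowest treated array was still above the highest untreated one, and the log2 difference was 1.77 ± 0.40 (limma adjusted p = 0.00996). Irf3, which is activated by phosphorylation and not mainly by its transcript level, read 554.0, 654.0 and 669.3 untreated and 580.4, 654.9 and 734.0 treated, groups that overlapped, with a log2 difference of 0.07 ± 0.37 (limma adjusted p = 0.955, 95% interval -0.73 to 0.86).

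Irf1 read 2887.0, 2087.8 and 1643.5 on the untreated WT arrays and 11885.7, 8259.4 and 9574.0 on the treated ones. All treated arrays were higher, and the log2 difference was 2.18 ± 0.51 (limma adjusted p = 0.0130). Its competitor Irf2 read 170.1, 137.9 and 86.6 untreated and 96.6, 108.4 and 132.9 treated. These groups overlapped, and the log2 difference was -0.16 ± 0.45 (limma adjusted p = 0.895). Irf9, the DNA-binding subunit of the interferon-activated complex with STAT2, read 668.4, 813.6 and 692.6 untreated and 701.1, 1029.0 and 1322.8 treated. The groups overlapped here as well, and the log2 difference of 0.44 ± 0.39 did not pass (limma adjusted p = 0.578).

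The factors of the DC subsets did not share a direction. Irf4 read 450.0, 512.0 and 511.7 on the untreated WT arrays and 1099.3, 1114.3 and 1494.0 on the treated ones. All treated arrays were over the untreated range, and the log2 difference was 1.29 ± 0.33 (limma adjusted p = 0.0226). Irf8 read 4396.3, 3809.8 and 5162.0 untreated and 3546.8, 3956.5 and 1706.7 treated. Its groups overlapped, and the log2 difference of -0.61 ± 0.46 did not pass (limma adjusted p = 0.486). Of 8 measured markers of the CD8 alpha-positive DC subset, 6 fell in the same comparison, with log2 differences of -3.98 for Xcr1 and -2.91 for Cd8a. Batf3, on the same list, read 1033.8 to 1526.1 untreated and 1607.4 to 2511.2 treated and was not called. In aly DCs none of the 8 was called for treatment (median -1.39, 5 at an unadjusted p under 0.05 in limma). The summed intensity of the 8 in WT was 14726 to 20487 untreated and 7658 to 11550 treated, and its part in the IRF values was not tested. In bulk RNA fewer cells of a type and less RNA per cell cannot be told apart.

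Of the 4 members called in WT DCs, Irf7 was the one whose call did not hinge on single arrays. The call of Irf1 was lost when untreated WT array 3 or treated WT array 1 or 3 was left out (limma adjusted p up to 0.069). Irf5 lost its call on leaving out untreated WT array 1 or 3 or treated WT array 1 or 3 (up to 0.059). Irf4 lost it on leaving out any untreated WT array or treated WT array 1 or 3 (up to 0.121).

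**Figure D1:**
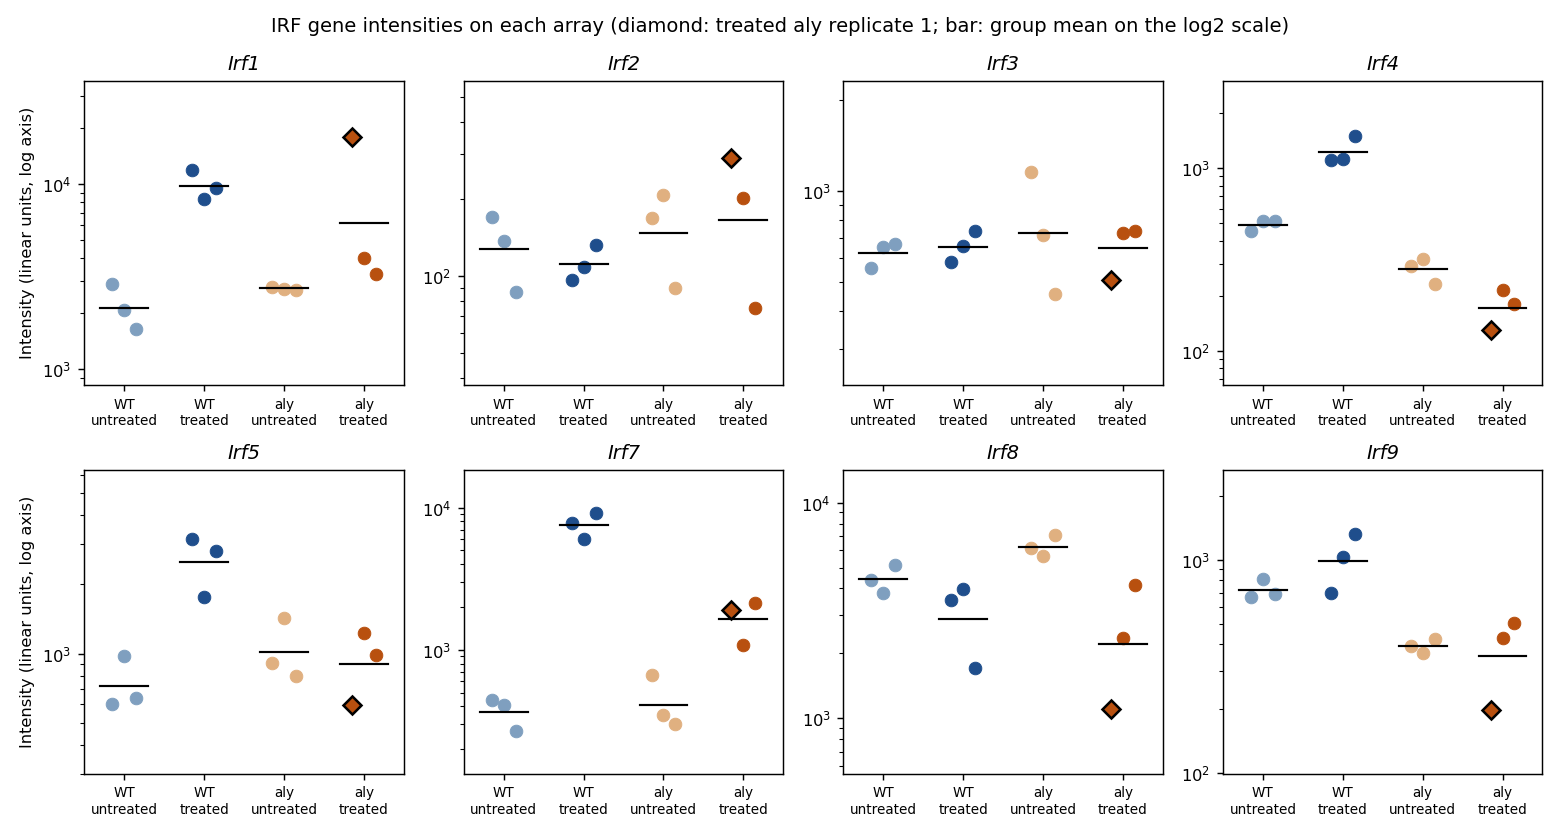
Intensity on a log axis of the 8 IRF genes on each of the 12 arrays, by group, with 1 point per array, a bar at the group mean on the log2 scale and a diamond for treated aly replicate 1. Irf7 lies between 6057.8 and 9216.9 on the treated WT arrays and between 1080.9 and 2127.2 on the treated aly arrays, and the 4 groups of Irf4 do not overlap.

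In aly DCs the same treatment raised Irf7 alone among the 8 members, 3.86-fold. That is 1 of 8, where 0.453% of all genes rose and 0.0333% fell. The members' median log2 difference was -0.15, beside -0.08 over all genes. Irf7 read 666.1, 348.9 and 299.5 on the untreated aly arrays and 1901.2, 1080.9 and 2127.2 on the treated ones. The groups did not overlap, and the log2 difference was 1.95 ± 0.40 (limma adjusted p = 0.0399). This call was kept on leaving out treated aly replicate 2 and lost on leaving out any other single array, with an adjusted p up to 0.220. Without treated aly replicate 1 the difference was 1.84 (adjusted p = 0.077).

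Irf1 depended on which treated aly array was read. It was at 2797.6, 2729.1 and 2676.0 untreated and at 18003.7, 3997.9 and 3285.6 treated, so replicate 1 read far above the other treated arrays, and all 3 were over the untreated range, as on 6.02% of all genes. The log2 difference was 1.17 ± 0.51 (limma adjusted p = 0.368) and 0.40 without replicate 1 (adjusted p = 0.793). Irf5 read 911.9, 1428.9 and 796.7 untreated and 599.5, 1234.3 and 980.4 treated, with a log2 difference of -0.17 ± 0.40 (adjusted p = 0.880). Its groups overlapped, unlike those in WT DCs.

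Irf4, which rose in WT, read lower on all 3 treated aly arrays than on any untreated one, as did Irf8, a pattern of 8.56% of all genes. It read 291.6, 319.4 and 232.2 untreated and 129.9, 216.1 and 180.2 treated. The log2 difference of -0.65 ± 0.33 did not pass (limma adjusted p = 0.415, and -0.47 with adjusted p = 0.746 without treated aly replicate 1). Irf8 read 1106.7, 2362.6 and 4163.1 treated against 6126.9, 5633.1 and 7101.4 untreated, with a log2 difference of -1.49 ± 0.46 that did not pass over all genes (limma adjusted p = 0.234, and -0.99 with adjusted p = 0.504 without replicate 1). The interval of that difference, -2.46 to -0.52, included the WT value of -0.61, and its second probe set gave -0.36. Irf9 read 391.4, 365.2 and 425.6 untreated and 197.8, 428.8 and 505.8 treated, with overlap and a difference of -0.16 ± 0.39 (limma adjusted p = 0.887). Irf2 and Irf3 overlapped as well. Irf2 read 169.0, 207.0 and 90.0 untreated and 288.9, 201.6 and 75.3 treated, and Irf3 1158.2, 715.2 and 454.4 untreated and 507.3, 727.2 and 738.6 treated.

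Before treatment no member differed between aly and WT DCs at the threshold, where 0.553% of all genes did (limma), and 2 passed at an unadjusted p under 0.05. The members' median log2 difference (aly minus WT) was 0.20, beside 0.10 over all genes. Irf4 and Irf9 were lower and Irf8 higher in every untreated aly array than in any untreated WT array. Among all genes 9.86% were so placed lower and 12.9% higher. Irf4 averaged 281.1 ± 44.5 (SD, n = 3) in aly and 491.2 ± 35.7 in WT, a log2 difference of -0.78 ± 0.33 (limma adjusted p = 0.424). Irf9 averaged 394.1 ± 30.3 and 724.9 ± 77.8, a log2 difference of -0.85 ± 0.39 (limma adjusted p = 0.461). Irf8 averaged 6287 ± 747 and 4456 ± 678, a log2 difference of 0.50 ± 0.46 (limma adjusted p = 0.752). On the second Irf8 probe set the untreated genotypes overlapped, at 1797.5 to 5180.2 in aly and 620.4 to 2615.7 in WT (log2 difference 0.96, not called). Irf1, Irf2, Irf3, Irf5 and Irf7 overlapped between the untreated genotypes, with log2 differences from 0.16 (Irf7) to 0.48 (Irf5).

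After treatment Irf4, Irf7, Irf5 and Irf9 were lower in aly than in WT DCs. The fold differences were 6.59 for Irf4, 4.59 for Irf7, 2.75 for Irf5 and 2.72 for Irf9, and for each of these 4 genes every treated aly array lay under every treated WT array, as on 10.1% of all genes. In this comparison 4 of 8 members were lower and none was higher, where 2.64% of all genes were lower and 2.74% higher. The members' median log2 difference was -1.05, beside 0.19 over all genes (0.12 without treated aly replicate 1).

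For Irf4 the treated arrays read 129.9 to 216.1 in aly and 1099.3 to 1494.0 in WT. The log2 difference was -2.72 ± 0.33 (limma adjusted p = 0.000688), and -2.54 (adjusted p = 0.000441) without treated aly replicate 1. It was called without any 1 of the 12 arrays and under each of the 11 other settings tried. Plasma cells and B cells also express Irf4. The summed intensity of the 4 plasma cell markers tested was 757 to 1650 on treated WT and 387 to 673 on treated aly arrays. They did not move together (median -0.0024 between treated genotypes): Sdc1 read higher in treated aly (86.6 to 405.5, against 22.4 to 98.0 in WT) and Mzb1 overlapped. Neither was called, nor was Jchain, the other marker besides Prdm1. The 1 called was Prdm1, a repressor in plasma cells that activated DCs also express, and it is part of the sum above. It read 395.7 to 682.4 in treated WT and 8.5 to 106.3 in treated aly DCs (log2 difference -3.00, limma adjusted p = 0.006). The 6 B cell markers summed to 309 to 658 and 374 to 738 on the same arrays, and none differed. For the DC subset with CD4 or CD11b, 6 markers were tested. Between untreated genotypes none was called (median -0.89, 4 at an unadjusted p under 0.05 in limma). Between treated genotypes 1 was lower in aly and none higher (median 0.52, 3 at an unadjusted p under 0.05). These markers summed to 4273 to 5043 on treated WT and 3570 to 4892 on treated aly arrays. The part of all these cells in the Irf4 differences was not tested.

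Irf7 read 1080.9 to 2127.2 on the treated aly arrays and 6057.8 to 9216.9 on the treated WT arrays, with no overlap. The log2 difference was -2.20 ± 0.40 (limma adjusted p = 0.00738) and -2.31 (adjusted p = 0.00424) without treated aly replicate 1. The call was lost without WT treated replicate 3 (-1.90, adjusted p = 0.068) and with only the treated groups in the fit (adjusted p = 0.075).

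Irf5 and Irf9 were nearer to the threshold. Irf5 read 599.5 to 1234.3 in aly and 1768.5 to 3154.1 in WT (log2 difference -1.46 ± 0.40, limma adjusted p = 0.0443). Irf9 read 197.8 to 505.8 in aly and 701.1 to 1322.8 in WT (log2 difference -1.45 ± 0.39, limma adjusted p = 0.0421). Both lost their calls without treated aly replicate 1 (-1.17, adjusted p = 0.076, and -1.06, adjusted p = 0.075). Each was called in 3 of the 12 fits that left out 1 array: Irf5 without aly untreated replicate 3, WT treated replicate 2 or aly treated replicate 3, and Irf9 without aly untreated replicate 3, WT treated replicate 1 or aly treated replicate 3. The highest adjusted p over those fits, without WT treated replicate 3, was 0.197 for Irf5 and 0.218 for Irf9.

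Irf1 showed the opposite dependence. With all arrays its log2 difference between treated genotypes was -0.66 ± 0.51 (limma adjusted p = 0.461). Treated aly replicate 1, at 18003.7, read above all treated WT arrays, and the other 2 aly arrays read below them. Without that array the difference was -1.43 ± 0.34 (adjusted p = 0.0189). Irf8 averaged 2544 ± 1536 (SD, n = 3) in aly and 3070 ± 1198 in WT (log2 difference -0.38 ± 0.46, limma adjusted p = 0.654), and without replicate 1 the difference was 0.12. The 8 markers of the CD8 alpha-positive subset summed to 11996 to 17092 in treated aly and 7658 to 11550 in treated WT DCs. Of these markers 1 was called higher in treated aly in limma, and 4 were without replicate 1. Their part in the Irf8 values was not tested. Irf2 and Irf3 differed by 0.51 ± 0.45 and -0.01 ± 0.37 (limma adjusted p = 0.522 and 0.989), with the arrays of both genotypes overlapping.

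**Figure D2:**
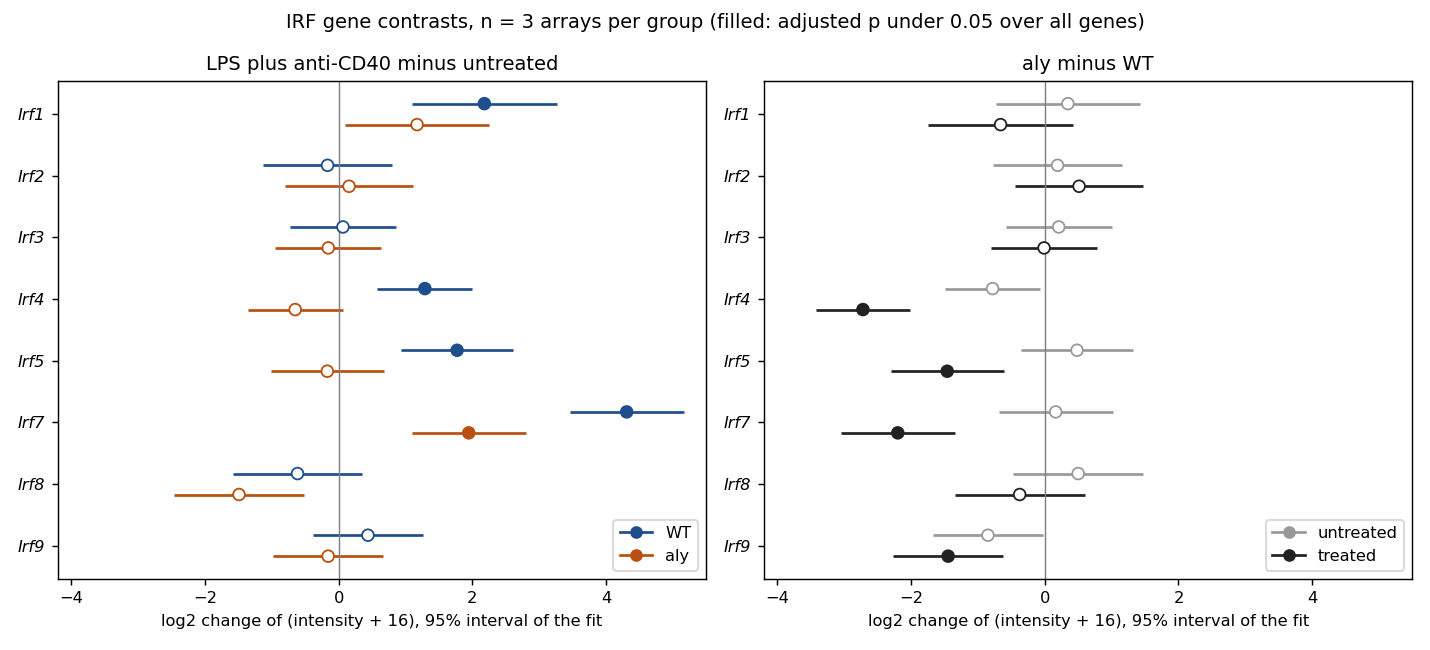
Log2 differences of intensity plus 16 with their 95% intervals from limma, 3 arrays per group, for treatment in each genotype (left) and for genotype without and with treatment (right). Filled points have an adjusted p under 0.05 over all genes: 4 members for treatment in WT, 1 in aly, none between untreated and 4 between treated genotypes.

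The test of whether the treatment acted differently in the genotypes, the interaction, passed for none of the 8 members and for 0.153% of all genes. At an unadjusted p under 0.05 it was passed by 3 of them. The interaction (treatment difference in aly minus that in WT) was -2.36 ± 0.57 for Irf7 (95% interval -3.57 to -1.15, limma adjusted p = 0.187). For Irf4 it was -1.94 ± 0.47 (-2.94 to -0.94, limma adjusted p = 0.188), and for Irf5 -1.94 ± 0.56 (-3.13 to -0.75, limma adjusted p = 0.300). All 3 passed when arrays were weighted by their fit to the model. Without treated aly replicate 1 the values were -2.47 (adjusted p = 0.0502), -1.76 (0.076) and -1.66 (0.161). The comparisons above share arrays, so they are not independent of each other.

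The order of the 4 groups differed from gene to gene. Irf4 had 4 separate ranges: WT treated, WT untreated, aly untreated, then aly treated, from high to low. Irf7 was highest in WT treated, then aly treated, each clear of the next group, and its untreated groups overlapped. Irf5 was highest in WT treated, and the other 3 groups overlapped in turn. For Irf9 both WT groups lay above both aly groups, and the treated and untreated arrays of each genotype overlapped. For Irf8 untreated aly was highest and clear of the rest on the probe set used, and the other groups overlapped in turn. On its second probe set untreated aly overlapped both untreated WT and treated aly. For Irf1 both treated groups were clear of both untreated ones, and for Irf2 and Irf3 every neighbouring pair overlapped.

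**Figure D3:**
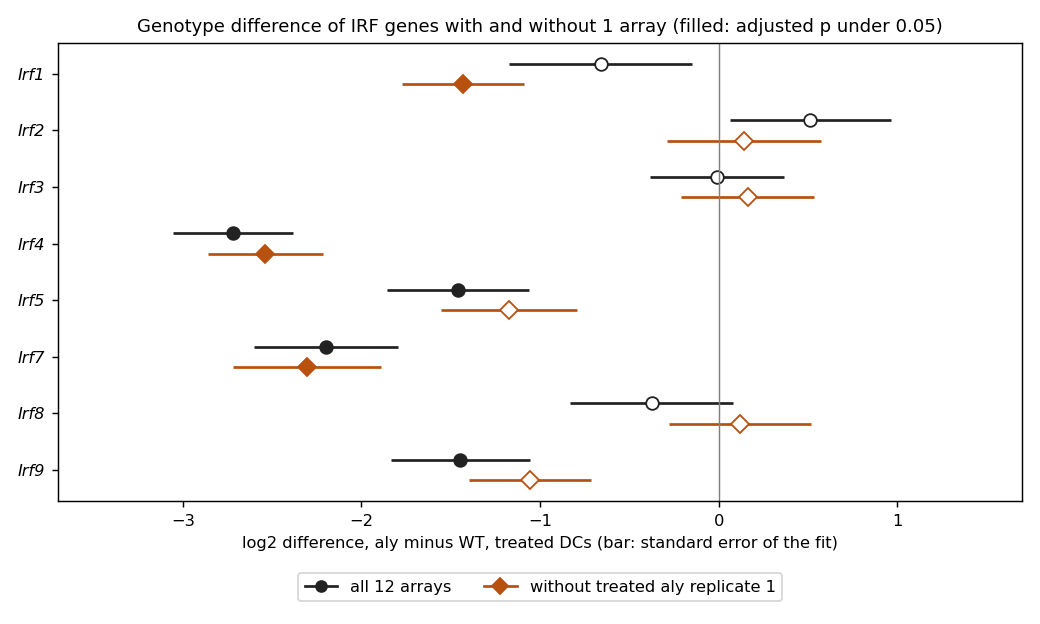
Log2 difference (aly minus WT) of the 8 IRF genes in treated DCs, with its standard error, from all 12 arrays (circles) and without treated aly replicate 1 (diamonds). Filled points have an adjusted p under 0.05: Irf4 and Irf7 in both fits, Irf5 and Irf9 with all arrays only, and Irf1 without the array only.

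Probe sets of the same member did not always move together. The second Irf4 probe set read 22.8 to 57.9 over all arrays and gave 0.37 for treatment in WT and -0.12 between treated genotypes. The second Irf5 probe set, at 24.8 to 86.6, gave 0.58 and 0.02. Neither was called, and when probe sets were averaged the Irf4 difference between treated genotypes was -1.42 and that of Irf5 -0.72. Irf8 gave -0.38 and 1.30 on its 2 probe sets for that comparison, neither of which was called. The 4 Irf3 probe sets gave WT treatment differences from -0.44 to 1.04, none called. Between treated genotypes they gave -1.32 to 1.03, against -0.01 on the probe set used for the gene. None was called there either, and the lowest and highest had an unadjusted p of 0.014 and 0.036 in limma. For treatment in aly DCs they gave -1.66 to 0.27, against -0.15 on the probe set used, again none called. Levels of different probe sets are not comparable, and whether the low ones read their transcripts was not tested.

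The genes around the IRFs were described from 7 lists. Of the genes that carry signals to IRFs, 22 of 26 were tested, and 7 rose and 1 fell in treated WT DCs (median 0.64, all genes -0.12). They included the IRF3 and IRF7 kinase gene Ikbke (3.89 ± 0.49, limma adjusted p = 8.49e-05), the receptor gene Cd40 (3.58 ± 0.50, 0.000257) and the RNA sensor gene Ddx58 (2.58 ± 0.38, 0.00037). Tlr3, the endosomal double-stranded RNA receptor, fell by 3.30 ± 0.62 on the log2 scale (0.00296) and is also a marker of the CD8 alpha-positive subset. None passed in aly DCs (median -0.02), where 5 had an unadjusted p under 0.05 in limma. Ikbke was dim on the untreated WT arrays, at 1.8 to 19.7, and read 206.6 to 605.9 on the treated ones. In aly it read 54.7 to 82.5 untreated and 177.3 to 597.8 treated. Its treated aly arrays thus all lay above the untreated ones, and the treated ranges of both genotypes overlapped. Between treated genotypes 2 genes of the list were lower in aly (limma), Ddx58 (-2.08 ± 0.38) and the kinase adaptor gene Tank (-1.44 ± 0.40). Without treated aly replicate 1, 2 were higher and 3 lower.

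Of the interferons and their receptors, 10 of 14 were tested, and Ifng alone rose in treated WT DCs (6.51 ± 0.79, limma adjusted p = 6.51e-05). It read 2.5 to 16.2 untreated and 640.9 to 6301.7 treated in WT, and 0.8 to 39.0 and 149.3 to 1285.5 in aly (3.69 ± 0.79, adjusted p = 0.0514). Natural killer cells are a known source of Ifng. Of their 4 markers tested Gzma rose in WT (3.41, limma adjusted p = 0.017), the summed intensity was 88 to 143 untreated and 161 to 1549 treated, and its part in the Ifng values was not tested. The type I interferon genes Ifnb1, Ifna2 and Ifna5 were not called, with WT treatment differences of -0.40, 0.63 and -0.43. Ifnb1 read 24.7 to 34.9 untreated and 12.6 to 27.4 treated in WT. The list's median was -0.33 in WT and -0.13 in aly, where 2 had an unadjusted p under 0.05 in limma and none passed. Between treated genotypes none passed either (1 at an unadjusted p under 0.05), although without treated aly replicate 1 Ifng was lower in aly (-3.55, adjusted p = 0.00606).

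Of 6 genes for kinases and STATs that act with IRF9, 5 were tested and 4 rose in WT (median 1.78), none in aly in limma (median 0.46, 1 at an unadjusted p under 0.05). Stat2, the partner of IRF9, rose by 2.73 ± 0.45 (limma adjusted p = 0.000985) and Stat3 by 2.62 ± 0.37 (0.000274). After treatment 3 were lower in aly (median -1.79): Jak1 (-2.25 ± 0.51), Stat2 (-1.86 ± 0.45) and Tyk2 (-1.79 ± 0.39), each with a limma adjusted p between 0.0164 and 0.0254.

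Of 16 DNA-bound partners and cofactors 15 were tested, and 5 rose in WT (median 0.67) and none in aly in limma (median 0.13, 3 at an unadjusted p under 0.05). Spib, an Ets factor that binds with IRF4 and IRF8, rose by 3.03 ± 0.40 (limma adjusted p = 0.000138) and read 182.5 to 420.7 untreated and 1705.2 to 3071.6 treated. Batf2 (3.92 ± 0.52) and Batf (1.59 ± 0.40), which pair with Jun proteins and IRFs, and the NF-kB subunits Relb (2.62 ± 0.44) and Rela (1.69 ± 0.41) made up the rest. Between treated genotypes 3 were lower in aly (median -0.60), Spib (-2.49 ± 0.40), Relb (-1.92 ± 0.44) and the repressor gene Etv6 (-1.42 ± 0.36). Spi1, which encodes PU.1, and Batf3 were not called in any of these 3 comparisons.

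Genes of the type I interferon response, which IRF7 and the IRF9 complex are known to activate, were called in both genotypes. Of the 21 tested of 23, 19 rose in WT (median 3.43) and 6 in aly (median 1.92). In WT Oasl1 rose by 6.19 ± 0.56, Cxcl10 by 5.74 ± 0.52 and Ifit1 by 4.94 ± 0.50. In aly the same 3 genes rose by 3.61, 3.21 and 2.88, with limma adjusted p from 0.00866 to 0.0176. After treatment 11 were lower in aly and none higher (median -1.69), with Mx1 at -3.48 ± 0.49 and Cmpk2 at -2.33 ± 0.40. Without treated aly replicate 1, 15 were lower (median -2.11), and 5 rose in aly (median 1.51). That array had a summed intensity for this list of 164313, against 29242 and 33501 on the other treated aly arrays and 78746 to 102723 on treated WT arrays. On that array Rsad2 read 61960.1, Ifi35 52250.8 and Oas1a 21099.8, and these bright genes weigh most in the sum. By contrast, Mx1, Cmpk2 and Herc6 read at most 481.3, 333.7 and 1769.8 on treated aly arrays. On treated WT arrays they read at least 1806.3, 938.7 and 3240.9. No interaction passed in limma with all arrays (median -1.59, 11 at an unadjusted p under 0.05), and 5 passed without treated aly replicate 1, where 0.752% of all genes did.

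Of 17 genes that interferon gamma and IRF1 are known to induce, 13 were tested, and 9 rose and 1 fell in WT (median 2.54). Gbp2, a guanylate-binding protein gene, rose by 5.69 ± 0.39 (limma adjusted p = 4.48e-07) from 206.1 to 226.9 untreated to 11529.3 to 12587.7 treated. Il15, the cytokine that sustains natural killer and memory T cells, rose by 3.28 ± 0.35. Ciita, the activator of MHC class II genes, fell by 1.59 ± 0.47. None of the 13 passed in aly in limma (5 at an unadjusted p under 0.05), with a median of 0.72, and 0.14 without treated aly replicate 1. After treatment 7 were lower in aly (median -1.54), led by Il15 (-3.25 ± 0.35) and Cd274, which encodes PD-L1 (-3.16 ± 0.37). Here 2 interactions passed, Gbp2 (-3.96 ± 0.55) and Il15 (-3.61 ± 0.50), each with a limma adjusted p of 0.0105. Il15 read 110.5 to 166.3 untreated and 77.8 to 131.1 treated in aly, against 74.9 to 152.0 and 1074.5 to 1178.0 in WT. Cd274 read lower in aly already without treatment, at 187.2 to 262.2 against 618.7 to 653.1 in WT. With treatment it read 274.1 to 610.0 in aly and 2842.4 to 4699.6 in WT.

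Of 8 regulators that limit these pathways 7 were tested, and 4 rose in WT (median 2.18). They were Socs3 (4.30 ± 0.46), Usp18 (3.06 ± 0.40, also in the type I response list), Socs1 (2.74 ± 0.36) and Tnfaip3 (2.18 ± 0.35). Socs3, an inhibitor of cytokine receptor kinases, also rose in aly (3.43 ± 0.46, limma adjusted p = 0.00245), the only gene of this list to do so (median 0.62). After treatment 4 were lower in aly (median -1.70), Trim21, Usp18, Socs1 and Tnfaip3, with differences from -2.33 to -1.70. On leaving out treated aly replicate 1, the kinase and STAT, partner, interferon gamma and regulator lists had 3, 3, 7 and 4 genes lower in treated aly, the same counts as with all arrays. Before treatment no gene of the 7 lists differed between genotypes in limma with all arrays, and 13 of the 92 genes had an unadjusted p under 0.05. When treated aly replicate 1 was left out, 2 signal genes and 1 type I response gene were called higher in untreated aly. In the interferon gamma list 1 was then called lower, where 2.64% of all genes were called in either direction.

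**Figure D4:**
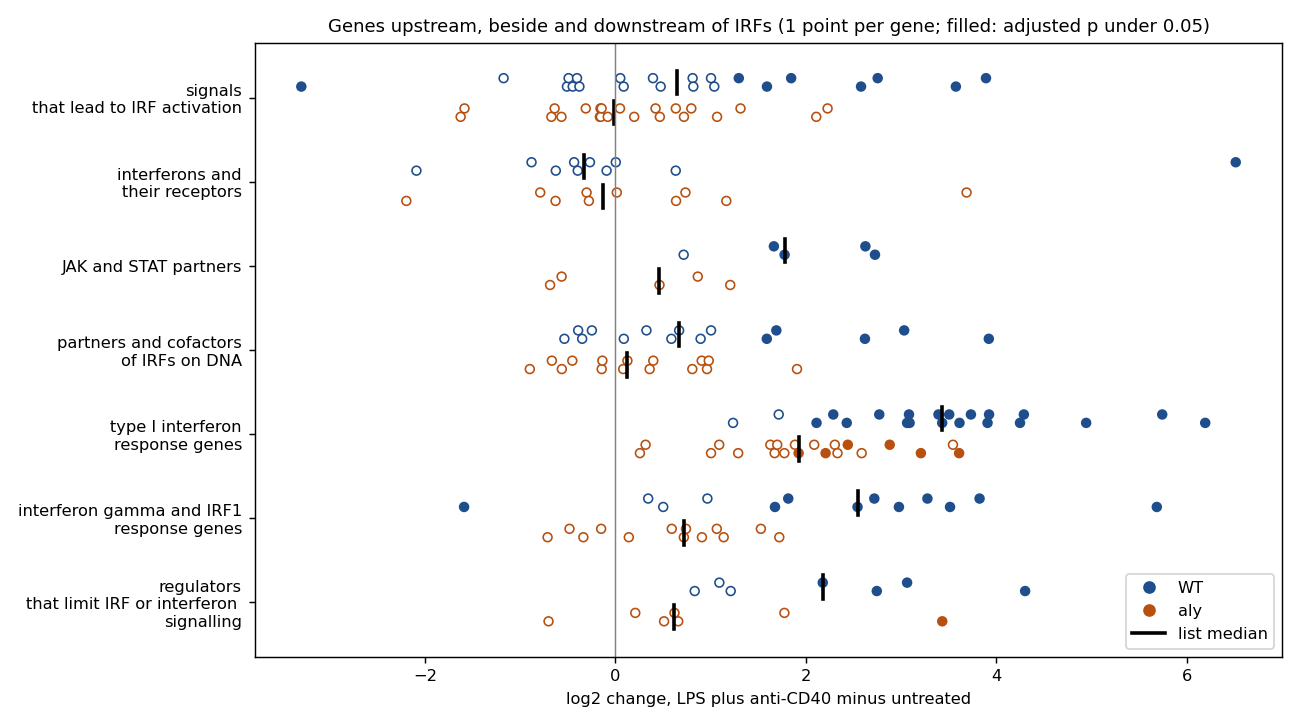
Log2 treatment difference of each gene tested in the 7 lists, in WT and aly DCs, with 1 point per gene, filled where the adjusted p is under 0.05, and a bar at the list median. The type I interferon response list has its median at 3.43 in WT and 1.92 in aly, with 19 and 6 of 21 genes filled.

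Likeness of pattern over the 12 arrays was measured as Pearson's r of log2 values, and the 3 nearest of all genes tested were taken for each member. The arrays share groups and the array that stood apart, so r is a description. Irf7 was nearest to Oas2 (0.99), Dhx58 (0.98) and Myo1g (0.98), the first a double-stranded RNA-activated synthetase gene and the second an RNA sensor gene. Irf5 was nearest to Gtpbp1 (0.98), Stat6 (0.96) and Zyx (0.94), Irf1 to Clic4 (0.98), Rnaseh2b (0.98) and Znrf1 (0.97), and Irf4 to Ogfrl1 (0.96), Lrch3 (0.95) and Vsig10 (0.95). Irf9 was nearest to Itga4 (0.98), Amn1 (0.97) and Scn3a (0.97), and Irf8 to Tsen15 (0.95), Mpeg1 (0.94) and Utp14a (0.94). The values for Irf2 (Sem1, 0.91) and Irf3 (Zfp524, 0.83) were lower. Within the family r was highest for Irf4 with Irf9 (0.89), then Irf1 with Irf7 (0.83), and lowest for Irf1 with Irf8 (-0.76).

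The labelled cell type was checked against its markers, because other spleen cells also express IRFs. Pan-DC markers summed to 18818 to 22580 in untreated WT, 9658 to 17606 in treated WT, 21334 to 26602 in untreated aly and 15952 to 20580 in treated aly DCs. Of the 5 pan-DC markers 1 was called lower in treated aly than in treated WT DCs in limma (median -0.14). Without treated aly replicate 1 none was (median 0.45), and none was called between untreated genotypes (median -0.34). Of the 11 red pulp macrophage markers tested, 6 were higher in aly without treatment (median 4.01) and 5 with it (median 2.99, limma). They summed to 2500 to 17817 and 2494 to 15583 in WT and to 43366 to 71843 and 31423 to 60766 in aly, untreated and treated in that order. The counts were 10 and 4 without treated aly replicate 1. Of 4 erythroid markers 1 was higher in untreated and 2 in treated aly DCs (3 and 2 without that array). Of 4 monocyte markers 1 was higher in aly in each comparison, and they summed to 4542 to 9562 and 1034 to 8512 in WT and to 11875 to 18454 and 12305 to 18479 in aly, with no overlap between genotypes. The 6 neutrophil markers, none called, summed to 14839 on treated aly replicate 1 and to 54 to 2921 on the other 11 arrays. Of 8 plasmacytoid DC markers, 2 rose (Bst2, 2.66, also an interferon-induced gene, and Tcf4, 1.17) and 1 fell (Ccr9, -2.61) in treated WT DCs (limma adjusted p = 0.00202, 0.0310 and 0.0060), and Tcf4 was lower in treated aly than in treated WT DCs (-1.45, limma adjusted p = 0.0188). The list summed to 798 to 1116 and 1966 to 2827 in WT and to 877 to 1264 and 1293 to 3843 in aly, and its defining marker Siglech read 2.8 to 43.2 over all arrays. Macrophages express several IRFs, and the part of these cells in the genotype differences was not tested.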

How the data were processed

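RNA from 12 pools of splenic DCs (4 groups, 3 arrays each) was hybridised to arrays of 45101 probe sets. The deposited values, made by the authors, are linear intensities with the same 2% trimmed mean on every array. Software and background correction were not given in the sources used here. Probe sets were named from GEO's platform annotation of 2016: 34945 had 1 symbol, 932 several and 9224 none, and 64 were controls.

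Here, log2(intensity + 16) was taken, probe sets over the 40th percentile of an array on at least 3 arrays were kept, and the probe set with the highest mean stood for its gene, giving 15019 genes. A limma model (limma 3.58.1, R 4.3.3, with data.table at version 1.17.8) with 1 mean per group was fitted to all 12 arrays, with two-sided moderated tests and Benjamini-Hochberg adjustment over all genes; the fit was tested on simulated data. The offset of 16 shrinks fold changes of dim genes. Detection calls were not used, so no gene is called silent. Array number limits the precision.

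All members were described. From each list, up to 4 called genes with the smallest adjusted p per comparison and genes with a stated role were named, with the defining markers and the 3 nearest genes per member. Prdm1 and Batf were singled out after their values were seen, and the list counts without treated aly replicate 1 were added after seeing the data. The members, the 7 lists and the 13 marker lists were chosen with earlier results of these data known. Deviations of same-numbered samples correlated at over 0.1 in all 3 pairs of untreated WT with untreated aly arrays (0.16, 0.23 and 0.18), which counts as pairing for that comparison alone; no other pair of groups reached this in all 3 pairs. The values given for the untreated genotypes come from the fit without pairs. With the replicate number as a block no member was called in that comparison either. Alternatives are given in the closing section.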

Additional observations from a re-analysis of the deposited data

Results flagged for a closer look

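Irf4 read above all untreated arrays on all 3 treated WT arrays, and below all untreated arrays on all 3 treated aly arrays. The WT difference passed (1.29, limma adjusted p = 0.0226) and the aly difference did not (-0.65, adjusted p = 0.415). The WT call was kept under 8 of the 11 other settings tried. The interaction was -1.94 on the log2 scale, and it did not pass over all genes (limma, adjusted p = 0.188, unadjusted p = 0.000833).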

How the results depend on the processing

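With all arrays 4 members were called for treatment in WT, 1 in aly, none between untreated genotypes, 4 between treated genotypes and none for the interaction. Leaving out 1 array at a time gave 1 to 4, 0 to 1, 0 to 0, 1 to 4 and 0 to 0. The replicate block gave 4, 1, 0, 4 and 0, and so changed no call. Same-numbered samples correlated at -0.03 to 0.30 (median 0.09, 8 of 18 pairs over 0.1). Differently numbered ones correlated at a median of -0.07 (2 of 36 over 0.1). The values correlated were deviations from group means, which cancel within a group. Where same-numbered pairs are positive the others must lean negative, so the second median is no separate evidence. Of the 12 arrays 9 correlated best with an array of their own number, a hint from the data that numbers share something. Poly-A control probe sets averaged 4.3 to 19.8 on the replicate 1 arrays and 50.7 to 460.2 on all others. A block that set replicate 1 apart also changed no call, and what the numbers share was not tested. Between treated genotypes 2 members were called with an offset of 1, median centring, all filtered probe sets or replicates 2 and 3 only, and 1 with only the groups compared. In aly DCs 0 were called under each of these 5 settings. In WT 2 were called with replicates 2 and 3 only, and 3 with median centring or averaged probe sets. Irf4 lost its WT call under each of these (limma adjusted p up to 0.080). With array weights 3 interactions passed. The causes were not tested.

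Values that changed sign were never called. With replicates 2 and 3 only they were Irf2 0.12 (WT), -0.13 (aly) and -0.24 (interaction), Irf3 0.35 (aly), -0.21 and 0.078 (untreated and treated genotypes) and 0.29 (interaction), Irf5 0.043 and Irf9 0.23 (aly), Irf7 -0.042 (untreated genotypes) and Irf8 0.27 (treated genotypes). Median centring gave Irf2 -0.061, Irf3 -0.044 and Irf7 -0.089 (untreated genotypes). Array weights gave Irf2 -0.0087, Irf5 0.040 and Irf9 0.17 (aly) and Irf3 0.13 (treated genotypes), quantile normalization Irf3 0.11 and averaged probe sets Irf8 0.46 (both treated genotypes). Over the 12 fits with 1 array left out, Irf2 ranged from -0.41 to 0.024 (WT), -0.21 to 0.66 (aly), -0.049 to 0.50 (untreated genotypes) and -0.050 to 0.82 (interaction). Irf3 ranged from -0.017 to 0.15, -0.48 to 0.18, -0.12 to 0.53 and -0.55 to 0.11 in the same order, and from -0.10 to 0.16 between treated genotypes. The ranges were -0.39 to 0.12 for Irf5 and -0.41 to 0.24 for Irf9 in aly, -0.17 to 0.38 for Irf7 between untreated and -0.83 to 0.12 for Irf8 between treated genotypes.

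The limits are 3 pools per group, 1 array that stands apart, RNA length and macrophage markers that move with genotype, and single probe sets for Irf1, Irf2, Irf7 and Irf9. Without treated aly replicate 1 the share of all genes called was 18.9% for treatment in WT, 0.366% in aly, 2.64% between untreated and 7.11% between treated genotypes, and 0.752% for the interaction.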
